A study of Homo sapiens with 10 samples.

Results

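A set of 10 genes that respond to low oxygen, VEGFA, ADM, CA9, CA12, BNIP3, NDRG1, EGLN3, PDK1, ANKRD37 and HIF1A, was followed through long-read RNA-seq of 7 established ovarian cancer cell lines. The members are defined by a list of gene symbols, and they account for 10 of the 57110 genes and 55 of the 99493 transcripts in the deposited annotation. RNA from each line was sequenced on nanopore instruments, which read cDNA molecules along their length, to benchmark software for transcript quantification. COV362, COV504, OVKATE, OVMANA, OVTOKO and SK-OV-3 each had 1 library, run on the PromethION instrument. IGROV-1 had 4 libraries, a replicate pair on the PromethION and a second pair on the MinION, a smaller device. The labels name the cell line and the instrument of each library and nothing else: no treatment, no oxygen level and no genotype was given, so the values are the levels of each line as cultured, and no group was labelled as hypoxic. Nothing in the labels says that the IGROV-1 replicates came from separate cultures, so the p-values measure the spread between these libraries, which may be technical.

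The 10 libraries held between 1729782 and 3666224 estimated counts, so that 1 read was worth between 0.273 and 0.578 CPM (the reads of a gene scaled to a common library total), and a count of 0 allowed a level of up to 0.82 to 1.73 CPM (3 counts, covering counting error only). Mitochondrial ribosomal RNA took 9.13% and 10.95% of the IGROV-1 PromethION libraries against 1.01% to 3.31% of the other 8, and that RNA is part of the total that CPM divides by. PAX8, a transcription factor of Müllerian epithelium, was read in all 10 libraries at 84.1 to 339.8 CPM. Of the epithelial markers in the 4 IGROV-1 libraries, KRT18 stood at 243.6 to 1079.5 CPM, KRT19 at 140.1 to 177.0 and KRT8 at 5.2 to 11.4. KRT7 and CDH1 had no reads there, and EPCAM stood at 0.0 to 1.5 CPM, against 8.7 to 1813.5 CPM in the 6 other lines. OVTOKO was low in several of these as well, with EPCAM at 8.7 CPM, KRT7 at 14.5, CDH1 at 2.3 and KRT19 at 0.6. Its KRT8 and KRT18 stood at 133.5 and 314.5 CPM. Summed leukocyte markers (5 genes) reached at most 16.4 CPM and endothelial markers (4 genes) at most 27.1 CPM. Fibroblast markers (6 genes) summed to 0.6 to 435.3 CPM, the highest from COL1A2 in COV362 at 429.4 CPM. SK-OV-3 had several of them, COL1A1 at 219.3 CPM, COL1A2 at 57.2, LUM at 52.7 and COL3A1 at 33.9. The part of these markers in the results was not tested.

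In cells with enough oxygen, prolyl hydroxylases of the EGLN family mark the alpha subunits of hypoxia-inducible factor (HIF) for destruction by the VHL ubiquitin ligase. When oxygen falls the alpha subunit, HIF-1alpha from HIF1A or HIF-2alpha from EPAS1, is spared, pairs with ARNT and binds the core letters ACGTG or GCGTG near its target genes. Because this control acts on the protein, the level of HIF1A RNA does not by itself report HIF activity, whereas the targets are read out as RNA. The targets here serve blood vessel growth (VEGFA, ADM), acid removal (CA9, CA12), mitochondrial turnover and fuel choice (BNIP3, PDK1), feedback on HIF itself (EGLN3) and less defined stress responses (NDRG1, ANKRD37).

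VEGFA is shown first because its reads fell into 2 forms that differ by a single exon. The long form carries a coding exon of 132 bases at chr6:43781956-43782087 (GRCh38, plus strand, GENCODE 29), which encodes heparin-binding residues that hold the growth factor at the cell surface and matrix. The short form joins the exon of 30 bases at chr6:43778889-43778918 directly to the last exon. The exon itself and the 2 junctions, in which capitals mark the bases read after the junction, are:
VEGFA exon of the long form: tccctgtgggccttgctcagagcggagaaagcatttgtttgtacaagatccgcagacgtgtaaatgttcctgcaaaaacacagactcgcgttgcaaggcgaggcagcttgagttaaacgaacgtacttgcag
VEGFA junction, long form: agcaagacaagaaaaTCCCTGTGGGCCTTG
VEGFA junction, short form: agcaagacaagaaaaATGTGACAAGCCGAG

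Of the 10 genes, 8 had a promoter window in the RefSeq table (GRCh38.p14), 10 windows in all because some genes have more than 1 start. In the 250 bases before the start, the letters ACGTG or GCGTG, on either strand, were found in 7 of the 10 windows (70.0%), against 43.2% of all 35116 windows of that length in the table. ACGTG alone was in 4 windows (40.0%), those of CA9, BNIP3, PDK1 and ANKRD37, against 18.5% of all windows, and 3 of the 4 held it at least 2 times. The 30 bases around these matches are shown with ACGTG, or CACGT where it lies on the other strand, in capitals. CACGTG holds the letters on both strands and is also the sequence of an E-box, so it counts as 2 matches at 1 place. A match is a run of letters and does not show binding.
CA9, chr9:35673897-35673926, plus strand: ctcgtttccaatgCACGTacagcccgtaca
BNIP3, chr10:131982040-131982069, minus strand: gcgcacgcgccgCACGTGccacacgcaccc
PDK1, chr2:172556060-172556089, plus strand: ccctgctgcccgcCACGTccctCACGTacc
ANKRD37, chr4:185396676-185396705, plus strand: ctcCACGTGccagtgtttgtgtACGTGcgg

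CA9 passed the filter on low counts through SK-OV-3 alone, so that it had to differ, and it is left out of the counts of calls. The other 9 genes each differed somewhere among the 7 lines. The edgeR quasi-likelihood test over the 7 PromethION groups gave them Benjamini-Hochberg adjusted p-values from 9.8e-06 (HIF1A) to 0.006 (BNIP3), but 81.3% of the 13030 genes tested passed the same test, so the 9 are not set apart by it. The BNIP3 call was lost without IGROV-1 MinION replicate 1 (0.056). In CPM, OVTOKO had the highest level of 5 of the 10 genes, SK-OV-3 of 4 and COV362 of 1. After TMM scaling, which puts OVMANA above SK-OV-3 for CA12, the numbers were 5 for OVTOKO, 3 for SK-OV-3 and 1 each for COV362 and OVMANA. On both scales IGROV-1 was never among the 2 highest lines. DESeq2 passed 7 of the 10 genes among the 7 lines, where it passed 31.6% of all genes, leaving out PDK1 and ANKRD37 (adjusted p 0.45 and 0.48) and CA9, to which it gave no adjusted p-value.

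Against the IGROV-1 PromethION pair, SK-OV-3 had 7 of the 9 genes other than CA9 higher and none lower (22% of all genes tested were higher and 19.8% lower). ADM, EGLN3 and ANKRD37 were over the filter level of 4.4 CPM in 4, 4 and 5 of the 10 libraries, none of them from IGROV-1. They entered the fit through lines where they are high, so against IGROV-1 they could hardly be called lower. They stay in the counts and medians of this paragraph, whose directions therefore rest in part on the filter. The 3 higher calls of COV504 are these genes. All of them are also among the higher calls of SK-OV-3, and ADM and ANKRD37 among those of OVTOKO. EGLN3 and ANKRD37 are among those of COV362, and EGLN3 among those of OVMANA and OVKATE. PDK1 was over the filter level in the IGROV-1 MinION libraries but not in the PromethION pair (3.0 and 2.6 CPM). OVTOKO had 7 higher and none lower, with backgrounds of 18.2% and 15.9%. COV362 split into 4 higher and 3 lower (23.7% and 18.8% of all genes), and COV504 into 3 higher and 2 lower (24% and 19.6%). OVMANA had 3 higher and none lower (18.9% and 16.5%). OVKATE stood apart in direction, with 2 higher and 4 lower (26.8% and 22.4%). The median log2 change was taken over those of the 9 genes with more than 3 reads on at least 1 side, with genes at 0 set to the bound that 3 reads give. That median was 2.09 in OVTOKO (8 genes), 1.62 in SK-OV-3 (9), 1.14 in COV362 (9), 0.89 in OVMANA (9), 0.39 in COV504 (9) and -1.31 in OVKATE (9). Over the fitted values of the 9 genes it was 1.87, 1.62, 1.14, 0.89, 0.39 and -1.31 in the same order, and the median of all genes tested lay between -0.01 and 0.04.

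Each line other than IGROV-1 had 1 library, so these tests borrow the spread of the IGROV-1 pairs (2 residual degrees of freedom) and assume that the lone libraries vary like them. The 6 comparisons also share their reference libraries. Of the 35 calls, 16 held under every alternative analysis that gave a value and 16 were lost with DESeq2, which called fewer genes throughout. DESeq2 called 4 of the genes for SK-OV-3, where it called 14.2% of all genes in either direction, and 1 each for COV362 and COV504, where it called 13.8% and 15.1%. With edgeR and without IGROV-1 MinION replicate 1, COV362 had 4 calls in place of 7, where 31.9% of all genes were called. With all 4 IGROV-1 libraries as reference, OVMANA had 1 call in place of 3, where 36.2% of all genes were called.

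**Figure D1:**
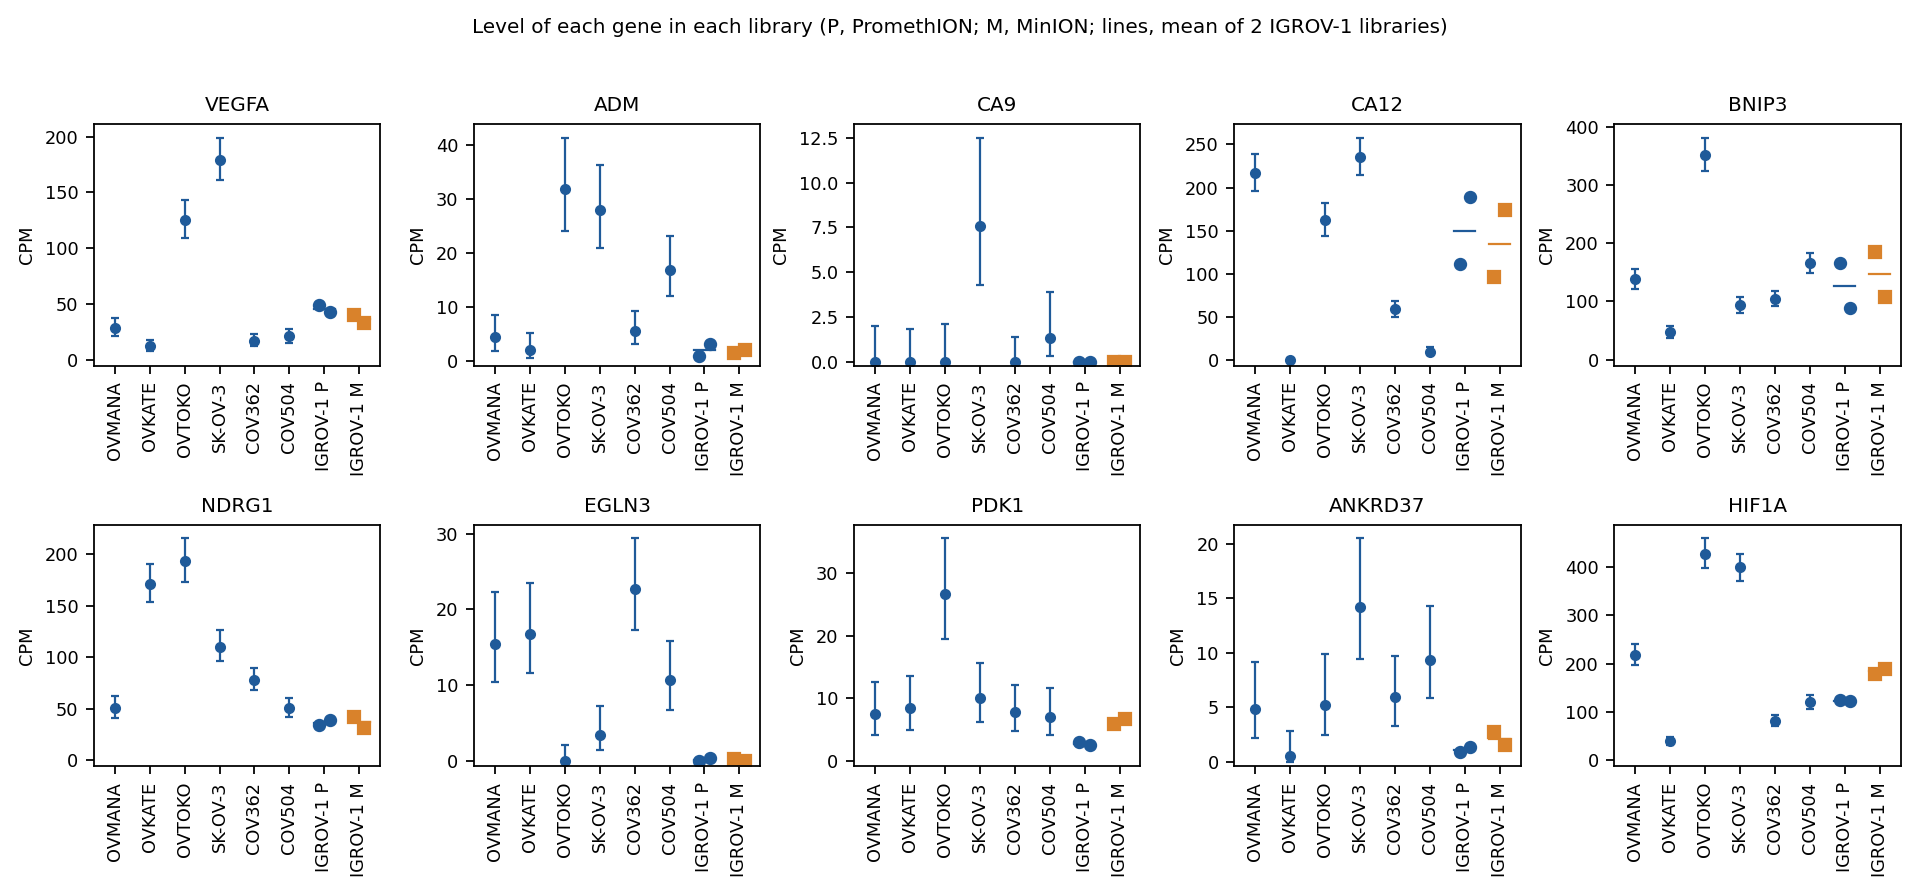
Level of each of the 10 genes (vertical axis, CPM, linear, a separate scale per gene) in the 10 libraries. Blue circles are PromethION libraries, with 95% Poisson counting intervals for the lines that have 1 library, and orange squares are MinION libraries; short lines mark the mean of an IGROV-1 pair. In CPM, all but EGLN3 peak in OVTOKO or SK-OV-3 (CA12 in OVMANA after TMM scaling), CA12 has no reads in OVKATE, and EGLN3 has none in OVTOKO.

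**Figure D2:**
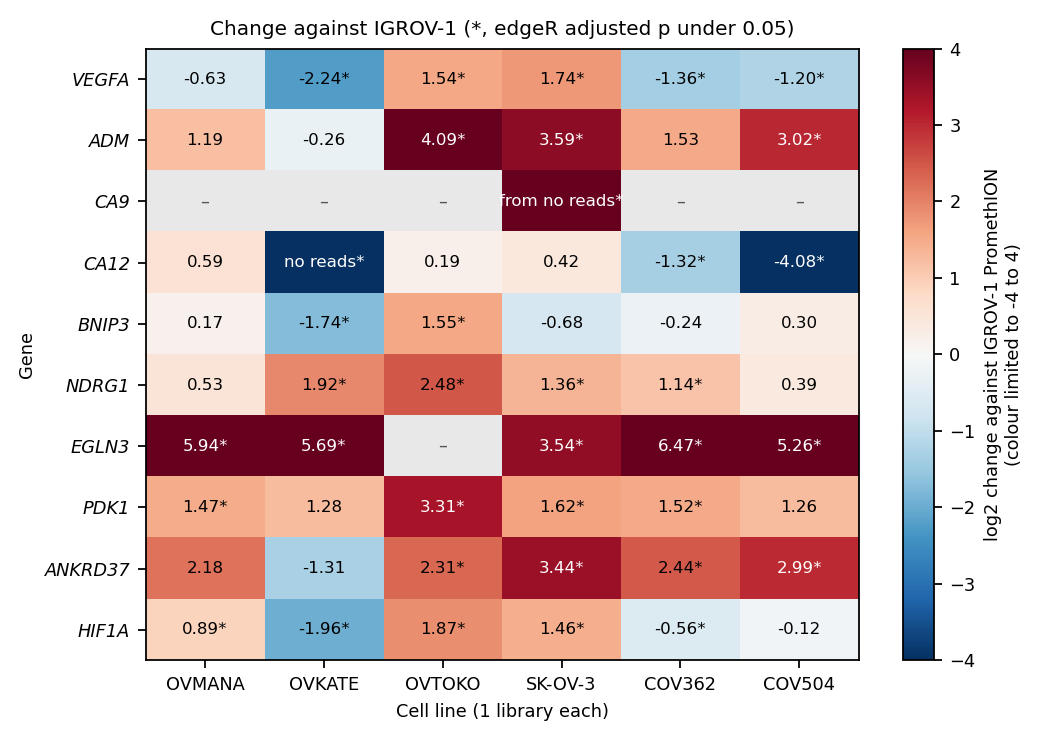
Fitted log2 change of the 10 genes (rows) in 6 lines (columns) against the IGROV-1 PromethION pair; red is higher, blue lower, and a star marks an edgeR adjusted p under 0.05. Dashes mark comparisons with 3 or fewer reads on each side, and EGLN3 values rest on 1 read in IGROV-1. The star of CA9 in SK-OV-3 is not read as a call, since the gene passed the filter through that line alone. SK-OV-3 (CA9 aside) and OVTOKO show 7 starred increases each and no starred decrease, while OVKATE shows 4 starred decreases. ADM, EGLN3 and ANKRD37 entered the fit through lines where they are high, so a starred decrease was hardly possible for them.

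HIF1A, the gene of the HIF-1alpha subunit, lies on chromosome 14 from 61695513 to 61748259 on the plus strand. Its level was 427.8 CPM in OVTOKO, 399.1 in SK-OV-3, 218.5 in OVMANA, 119.7 in COV504, 81.1 in COV362 and 39.1 in OVKATE. The IGROV-1 libraries gave 124.3 and 122.4 CPM on the PromethION (123.4 ± 1.3, SD, n = 2) and 178.9 and 188.5 on the MinION. OVTOKO, SK-OV-3 and OVMANA were above, and OVKATE, COV362 and, by a small margin, COV504 below, the range of all 4 IGROV-1 libraries. HIF1A was 3.66-fold higher in OVTOKO than in the IGROV-1 PromethION pair (log2 1.87, SE 0.14, edgeR adjusted p = 4.3e-05). In SK-OV-3 it was 2.76-fold higher (log2 1.46, SE 0.14, edgeR adjusted p = 0.00013), and in OVKATE 3.89-fold lower (log2 -1.96, SE 0.18, edgeR adjusted p = 7.2e-05). OVMANA was 1.85-fold higher (edgeR adjusted p = 0.0023), a call that was lost against all 4 IGROV-1 libraries together (0.085, over a range of 0.0015 to 0.085). COV362 was 1.48-fold lower (edgeR adjusted p = 0.022), and that call was lost without IGROV-1 PromethION replicate 1 (0.073), PromethION replicate 2 (0.066), MinION replicate 1 (0.051) or MinION replicate 2 (0.051), and with DESeq2 (0.41, over a range of 0.022 to 0.41). Along the order of levels, OVTOKO and SK-OV-3, IGROV-1 and COV504, and COV504 and COV362 did not pass the test (edgeR adjusted p = 0.11, 0.56 and 0.11). The other 3 steps passed.

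HIF1A reads came mainly from a transcript of 826 codons (ENST00000337138), which made up 65.8% to 81.4% of the gene's reads in the 6 other lines, 78.3% ± 2.5 (SD, n = 2) in IGROV-1 on the PromethION and 66.9% ± 4.0 (SD, n = 2) on the MinION. A sister transcript (ENST00000394997, 13.0% to 24.1% in the 6 lines) starts its exon 2 with 3 more bases, which adds 1 codon. The 2 junctions are shown with the extra bases in capitals.
HIF1A junction of exons 1 and 2: gaacgacaagaaaaagataagttctgaacg
HIF1A junction with the extra codon: gaacgacaagaaaaaTAGgataagttctga
A shorter form (ENST00000323441, 735 codons) skips the coding exon of 127 bases at chr14:61745691-61745817 and so loses the C-terminal activation domain of the protein. It took 1.9% to 6.3% of HIF1A reads in the 6 lines and 1.4% and 3.5% in IGROV-1 on the PromethION. On the MinION the same cell line gave 9.3% and 4.6%. HIF1A usage did not pass the test between instruments (edgeR diffSpliceDGE with Simes, adjusted p = 0.17, range over alternatives 0.12 to 0.91) or between any line and IGROV-1.

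EGLN3, a prolyl hydroxylase that marks HIF-alpha subunits and is itself a HIF target, is on chromosome 14 (33924231 to 34462774, minus strand). COV362 had 22.7 CPM (58 reads), OVKATE 16.8, OVMANA 15.5, COV504 10.7 and SK-OV-3 3.5. It had 0 reads in OVTOKO, which allows up to 1.73 CPM, and 0 to 0.4 CPM in IGROV-1 (1 read in the PromethION pair and 1 in the MinION pair). The lines thus fell into those with reads above and those at or near the floor, and OVTOKO, the line with the most HIF1A, was on the low side. Against the 1 PromethION read of IGROV-1 the ratio was 106 in COV362 with a 95% counting interval of 18.3 to 4260, 78.5 in OVKATE (13.2 to 3190), 72.4 in OVMANA (12 to 2960), 49.9 in COV504 (8.13 to 2050) and 16.6 in SK-OV-3 (2.13 to 746). The read lies in PromethION replicate 2, and the fitted log2 change in COV362, 6.47, was 5.61 without replicate 1 and 8.87 without replicate 2, with shifts of the same kind in the other 4 lines. All 5 passed the edgeR test, with adjusted p between 0.00022 (COV362) and 0.037 (SK-OV-3). The gene entered the fit through OVMANA, OVKATE, COV362 and COV504, where it is high. A decrease against IGROV-1 could hardly be called, so the direction of these calls was largely set by the filter. The SK-OV-3 call was lost in 6 of 11 alternatives (range 0.0063 to 0.27), among them the fits without IGROV-1 PromethION replicate 1 (0.083), MinION replicate 1 (0.076) and MinION replicate 2 (0.063). That of COV504 was lost with DESeq2 (range 2.6e-06 to 0.052). In the order of levels the step from SK-OV-3 to IGROV-1 passed the test, and none of the 4 steps above it did (edgeR adjusted p = 0.075 to 0.71). The 3 genes whose level over the 7 lines was most like that of EGLN3 were ARMCX7P (Pearson r 0.99), CLDN4 (0.986), a tight junction claudin, and EFHD1 (0.985), and 57 of 10309 genes compared reached an r of at least 0.9. CLDN4 stood at 0.6 CPM in OVTOKO and 1.1 in IGROV-1 and at 245.8 in OVKATE and 179.4 in COV362.

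VEGFA, the main growth factor for new blood vessels, is on chromosome 6 (43770184 to 43786487, plus strand). It stood at 179.3 CPM in SK-OV-3, 125.4 in OVTOKO, 28.3 in OVMANA, 20.9 in COV504, 17.2 in COV362 and 11.9 in OVKATE. In IGROV-1 it was 48.7 and 42.5 CPM on the PromethION (45.6 ± 4.4, SD, n = 2) and 39.8 and 33.1 on the MinION. SK-OV-3 and OVTOKO were above all 4 IGROV-1 libraries and the other 4 lines below them. The increase was 3.35-fold in SK-OV-3 (log2 1.74, SE 0.20, edgeR adjusted p = 0.00026) and 2.9-fold in OVTOKO (log2 1.54, SE 0.20, edgeR adjusted p = 0.00079). OVKATE was 4.72-fold lower (log2 -2.24, SE 0.29, edgeR adjusted p = 0.00044), COV362 2.56-fold lower (edgeR adjusted p = 0.004) and COV504 2.3-fold lower (edgeR adjusted p = 0.0063). The OVMANA value, log2 -0.63, did not pass (edgeR adjusted p = 0.089). DESeq2 did not pass COV362 (range over alternatives 5.3e-05 to 0.13) or COV504 (0.0003 to 0.21). Between neighbours in the order, OVTOKO and IGROV-1 passed the test (edgeR adjusted p = 0.00079) and the other 5 steps did not, so SK-OV-3 and OVTOKO were not separated (log2 0.21, SE 0.22, edgeR adjusted p = 0.54). NUCB2 (Pearson r 0.98), KCTD17 (0.979) and ZNHIT3 (0.973) were the genes most like VEGFA over the 7 lines, and 48 of 10309 genes had an r of at least 0.9.

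Of the 23 annotated VEGFA transcripts 3 reached an estimated count of 1 read in some library, and 2 of these have the same introns and differ only in where they start, so they were added up as the short form. The long form made up 44.7% and 42.4% of VEGFA reads in IGROV-1 on the PromethION (51 of 114 and 42 of 99 reads). In the other lines its share was 42.6% in COV504, 41.5% in OVTOKO, 41.0% in SK-OV-3, 38.6% in COV362, 29.2% in OVKATE and 17.0% in OVMANA. OVMANA was low, with 9 of 53 reads and a Wilson 95% interval of 9.2% to 29.2% that lies below both PromethION IGROV-1 intervals (35.9% to 53.9% and 33.2% to 52.3%). The IGROV-1 MinION libraries, however, gave 53.4% (45.3% to 61.3%) and 33.6% (25.4% to 43.0%), 2 replicates whose intervals do not overlap either. The usage test that includes this spread did not pass VEGFA in OVMANA (edgeR diffSpliceDGE with Simes, adjusted p = 0.45, range over alternatives 0.35 to 0.83). SK-OV-3, OVTOKO, COV362 and COV504 had shares of 38.6% to 42.6%, while the VEGFA level among them ran from 17.2 to 179.3 CPM. A form with a further coding exon of 72 bases (chr6:43780732-43780803) had 2 of 217 reads in OVTOKO, as the rounded sum of 2 transcripts each estimated below 1 read, and none elsewhere, which in SK-OV-3 (0 of 354 reads) leaves an upper Wilson bound of 1.1%.

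**Figure D3:**
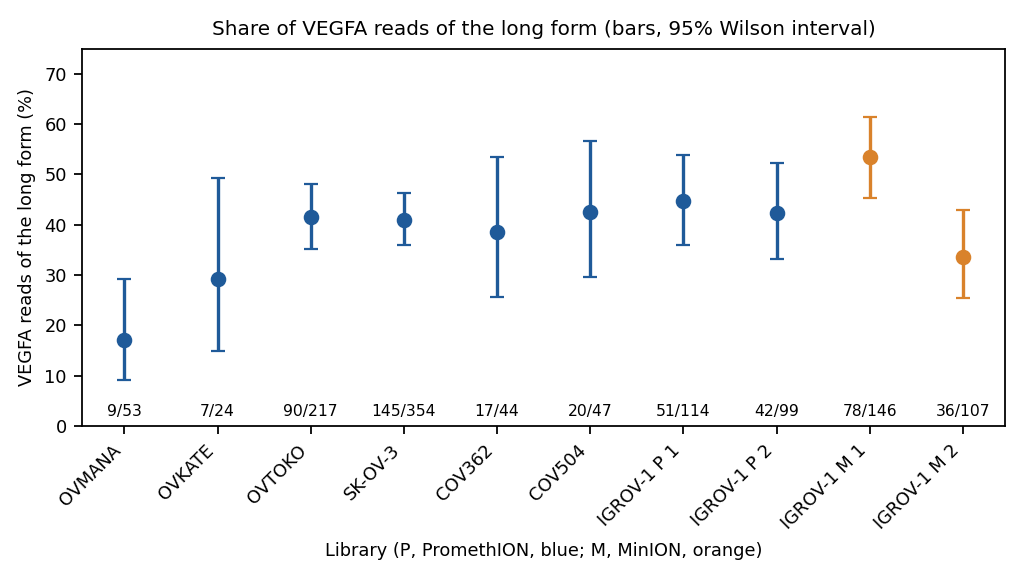
Share of VEGFA reads that belong to the long form (vertical axis, percent) in each of the 10 libraries, with 95% Wilson intervals; the numbers at the foot give long-form reads and all VEGFA reads. PromethION libraries are blue and MinION libraries orange. OVKATE is at 29.2% with 24 reads, OVMANA at 17.0% with 53 reads, and the other 8 libraries lie between 33.6% and 53.4%.

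ADM encodes adrenomedullin, a secreted peptide that widens vessels and acts on the endothelium (chromosome 11, 10304680 to 10307397, plus strand). Its level was 31.8 CPM in OVTOKO, 27.9 in SK-OV-3, 16.9 in COV504, 5.5 in COV362, 4.3 in OVMANA and 2.0 in OVKATE. IGROV-1 had 0.9 and 3.0 CPM on the PromethION, from 2 and 7 reads, and 1.4 and 1.9 on the MinION. OVTOKO, SK-OV-3 and COV504 were far above all IGROV-1 libraries, and OVKATE lay inside their range. The fitted increase was 17-fold in OVTOKO (log2 4.09, SE 0.47, edgeR adjusted p = 0.00039), 12-fold in SK-OV-3 (log2 3.59, SE 0.48, edgeR adjusted p = 0.00059) and 8.12-fold in COV504 (log2 3.02, SE 0.52, edgeR adjusted p = 0.002). These folds rest on the 2 and 7 reads of the PromethION pair. ADM entered the fit through lines where it is high, so the direction of these calls was largely set by the filter. Without PromethION replicate 1 the log2 change was 3.45 in OVTOKO, 2.96 in SK-OV-3 and 2.39 in COV504, and without replicate 2 it was 5.22, 4.72 and 4.15. DESeq2 lost the COV504 call (range over alternatives 9e-07 to 0.1). COV362, OVMANA and OVKATE did not pass (edgeR adjusted p = 0.088, 0.25 and 0.84), and none of the 6 steps between neighbouring lines did. The genes most like ADM over the 7 lines were STC1 (Pearson r 0.981), a secreted glycoprotein hormone with 52.6 CPM in OVTOKO and 49.1 in SK-OV-3, LIMA1 (0.981) and SLC35B2 (0.971), and 42 of 10309 genes had an r of at least 0.9.

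CA9, a carbonic anhydrase of the cell surface widely used as a marker of hypoxic tumour cells, is on chromosome 9 (35673856 to 35681159, plus strand). It had 15 reads in SK-OV-3 (7.6 CPM, 95% Poisson interval 4.3 to 12.5), 3 reads in COV504 (1.3 CPM) and none in the other 8 libraries. SK-OV-3 was therefore at least 11.8-fold above IGROV-1, taking the floor as 3 reads over the 2 PromethION libraries together. No test is given, since the gene entered the fit through SK-OV-3 alone. The 3 reads of COV504 are at the floor.

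CA12, the second membrane carbonic anhydrase of the set, is on chromosome 15 (63321378 to 63382161, minus strand) and is also known in epithelia outside hypoxia. Its level was 235.5 CPM in SK-OV-3, 216.4 in OVMANA, 162.4 in OVTOKO, 58.4 in COV362, 9.3 in COV504 and 0 in OVKATE. In IGROV-1 it was 111.5 and 188.6 CPM on the PromethION (150.0 ± 54.5, SD, n = 2) and 95.7 and 173.6 on the MinION. OVTOKO lay inside the IGROV-1 range, SK-OV-3 and OVMANA above it, and COV362, COV504 and OVKATE below it. OVKATE had 0 reads, which allows up to 1.48 CPM, and so was at least 101-fold lower than the IGROV-1 PromethION pair with its 700 reads (edgeR adjusted p = 0.00012). COV504 was 16.9-fold lower (log2 -4.08, SE 0.54, edgeR adjusted p = 0.00054) and COV362 2.49-fold lower (log2 -1.32, SE 0.39, edgeR adjusted p = 0.027). The COV362 call was lost in 5 of 11 alternatives (range 3e-09 to 0.084), among them the fits without IGROV-1 MinION replicate 1 (0.084) and MinION replicate 2 (0.068). SK-OV-3, OVMANA, OVTOKO and IGROV-1 formed a group at the top in which no neighbouring pair passed (edgeR adjusted p = 0.53 to 0.8), and each of the 3 steps below it passed (0.027, 0.013 and 0.035). OVMANA and SK-OV-3 changed places once TMM scaling was applied (log2 -0.17 for SK-OV-3 over OVMANA). Against the IGROV-1 PromethION pair, OVMANA, SK-OV-3 and OVTOKO did not pass in the main fit, but each passed under some alternative. PCGF2 (Pearson r 0.991), NLE1 (0.985) and MPHOSPH9 (0.977) were most like CA12 over the 7 lines, and 36 of 10309 genes had an r of at least 0.9.

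Nearly all CA12 reads were of the transcript with 11 exons (ENST00000178638, 98.5% of the reads of all libraries). The form that leaves out a coding exon of 33 bases (ENST00000344366) had 7 of 21 reads in COV504, or 33.3% (Wilson 95% interval 17.2% to 54.6%). In the other libraries with CA12 reads it had 0.0% to 5.4%. The difference in COV504 did not pass (edgeR diffSpliceDGE with Simes, adjusted p = 0.16, range over alternatives 0.11 to 0.35), with an unadjusted p of 0.009. The exon lies at chr15:63328098-63328130 on the minus strand.
CA12 exon of 33 bases: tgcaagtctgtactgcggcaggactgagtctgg

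BNIP3, a mitochondrial outer membrane protein that recruits the autophagy machinery, is on chromosome 10 (131966455 to 131982013, minus strand). OVTOKO had 352.6 CPM, COV504 165.5, OVMANA 137.9, COV362 105.0, SK-OV-3 93.2 and OVKATE 47.0. The IGROV-1 values were 165.7 and 89.3 CPM on the PromethION (127.5 ± 54.0, SD, n = 2) and 185.2 and 108.1 on the MinION. OVTOKO was above and OVKATE below all 4 IGROV-1 libraries, and the other 4 lines were inside their range. BNIP3 was 2.92-fold higher in OVTOKO (log2 1.55, SE 0.38, edgeR adjusted p = 0.014) and 3.34-fold lower in OVKATE (log2 -1.74, SE 0.47, edgeR adjusted p = 0.015). Both calls were lost without IGROV-1 MinION replicate 1 (0.069 and 0.061, the highest of ranges from 3.1e-14 and 2.1e-13). No step between neighbouring lines passed. SK-OV-3, high in HIF1A and VEGFA, gave log2 -0.68 for BNIP3 (SE 0.43, edgeR adjusted p = 0.24). The BNIP3 changes of SK-OV-3, COV504, OVMANA and COV362 did not pass in the main fit, but each passed under some alternative.

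PDK1, a kinase that turns off pyruvate dehydrogenase and so keeps pyruvate out of the citric acid cycle, is on chromosome 2 (172555373 to 172608669, plus strand). OVTOKO had 26.6 CPM, SK-OV-3 10.1, OVKATE 8.4, COV362 7.8, OVMANA 7.5 and COV504 7.1. IGROV-1 had 3.0 and 2.6 CPM on the PromethION, from 7 and 6 reads, and 6.0 and 6.8 on the MinION. OVTOKO was apart from all other libraries, while the 5 other lines were close to one another. PDK1 was 9.92-fold higher in OVTOKO than in the IGROV-1 PromethION pair (log2 3.31, SE 0.38, edgeR adjusted p = 0.00037, range over alternatives 1.2e-07 to 0.064, the highest with DESeq2; log2 2.55 against all 4 IGROV-1 libraries), and the step from OVTOKO to SK-OV-3 was the only 1 of the 6 between neighbours to pass (edgeR adjusted p = 0.012). SK-OV-3, COV362 and OVMANA also passed (log2 1.62, 1.52 and 1.47; edgeR adjusted p = 0.021, 0.027 and 0.049). Each of these 3 calls was lost against all 4 IGROV-1 libraries, whose MinION values are higher (log2 0.85, 0.75 and 0.71; edgeR adjusted p = 0.2, 0.25 and 0.36), and with DESeq2, so that the ranges over alternatives were 0.018 to 0.5, 0.024 to 0.56 and 0.042 to 0.6. Without IGROV-1 PromethION replicate 2 the edgeR adjusted p was 0.06 for SK-OV-3 and 0.083 for COV362, and without MinION replicate 1 it was 0.054 for COV362. The OVMANA call was lost in 8 of 11 alternatives, among them each fit without 1 IGROV-1 library (PromethION replicate 1, 0.086; PromethION replicate 2, 0.13; MinION replicate 1, 0.079; MinION replicate 2, 0.072). PDK1 reads were divided between a transcript with a long last exon of 12841 bases (ENST00000282077) and one that splices within it and ends earlier (ENST00000410055), both of 436 codons. The first took 71.4% and 66.7% of the reads in IGROV-1 on the PromethION, 30.0% to 62.5% in 5 of the other lines and 0 of 14 reads in OVMANA (upper Wilson bound 21.5%). That difference in OVMANA did not pass (edgeR diffSpliceDGE with Simes, adjusted p = 0.089, range over alternatives 0.062 to 0.33; unadjusted p = 0.0035).

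NDRG1, a stress-induced protein linked to the suppression of metastasis, is on chromosome 8 (133237171 to 133302022, minus strand). It stood at 193.7 CPM in OVTOKO, 171.1 in OVKATE, 110.4 in SK-OV-3, 78.4 in COV362, 50.8 in OVMANA and 50.7 in COV504. The IGROV-1 libraries had 34.2 and 39.1 CPM on the PromethION (36.6 ± 3.5, SD, n = 2) and 42.0 and 31.8 on the MinION. All 6 other lines were above all 4 IGROV-1 libraries. The increase was 5.57-fold in OVTOKO (log2 2.48, SE 0.22, edgeR adjusted p = 9.6e-05), 3.79-fold in OVKATE (log2 1.92, SE 0.22, edgeR adjusted p = 0.0002), 2.57-fold in SK-OV-3 (log2 1.36, SE 0.23, edgeR adjusted p = 0.0019) and 2.2-fold in COV362 (log2 1.14, SE 0.23, edgeR adjusted p = 0.0049). DESeq2 lost the COV362 call (range over alternatives 8.2e-05 to 0.097). OVMANA and COV504 did not pass (edgeR adjusted p = 0.14 and 0.24), and no step between neighbours did. OVKATE, lowest of the 7 lines in HIF1A, VEGFA and BNIP3, was thus among the 2 highest in NDRG1. A transcript without a coding exon of 106 bases (ENST00000537882) took 22.5% of NDRG1 reads in COV362 (45 of 200 reads, Wilson 95% interval 17.3% to 28.8%) and 7.0% to 14.7% in the 5 other lines. In IGROV-1 on the PromethION it took 6.2% and 11.0%. The COV362 difference did not pass (edgeR diffSpliceDGE with Simes, adjusted p = 0.34, range over alternatives 0.29 to 0.82).

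ANKRD37, a small ankyrin repeat protein known as a direct HIF-1 target, is on chromosome 4 (185396021 to 185400628, plus strand). SK-OV-3 had 14.2 CPM, COV504 9.3, COV362 5.9, OVTOKO 5.2, OVMANA 4.8 and OVKATE 0.5. IGROV-1 had 0.9 and 1.3 CPM on the PromethION, from 2 and 3 reads, and 2.7 and 1.5 on the MinION. OVKATE, with 1 read, was below all 4 IGROV-1 libraries and the other 5 lines were above them. ANKRD37 entered the fit through those 5 lines, so the direction of its calls was largely set by the filter. The fitted increase was 10.8-fold in SK-OV-3 (log2 3.44, SE 0.60, edgeR adjusted p = 0.0023), 7.94-fold in COV504 (edgeR adjusted p = 0.0058), 5.44-fold in COV362 (edgeR adjusted p = 0.02) and 4.94-fold in OVTOKO (edgeR adjusted p = 0.049). DESeq2 passed none of the 4, and its values were the highest of ranges of 5.6e-05 to 0.19, 0.00097 to 0.28, 0.013 to 0.45 and 0.039 to 0.52 in that order. Against all 4 IGROV-1 libraries the log2 change was 2.81 in SK-OV-3, 2.36 in COV504, 1.81 in COV362 and 1.67 in OVTOKO, in place of 3.44, 2.99, 2.44 and 2.31. The OVTOKO call was lost in 8 of 11 alternatives, among them the fits without IGROV-1 PromethION replicate 1 (0.087), MinION replicate 1 (0.065) and MinION replicate 2 (0.058). OVMANA and OVKATE did not pass (edgeR adjusted p = 0.058 and 0.43), nor did any step between neighbours.

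Over the 7 lines the level of HIF1A ran most closely with that of VEGFA (Pearson r 0.91, Spearman rho 0.93, n = 7 lines, on log2(CPM + 1)). CA12 followed with r 0.81, then ADM with 0.76, BNIP3 with 0.69, ANKRD37 with 0.65, PDK1 with 0.50, CA9 with 0.45 and NDRG1 with 0.10, and EGLN3 ran the other way with r -0.58. OVTOKO and SK-OV-3 lie farthest from the median of HIF1A. Without them, over 5 lines, r was 0.74 for VEGFA, 0.84 for CA12, 0.87 for BNIP3 and 0.54 for ANKRD37, but 0.31 for ADM, 0.15 for CA9, -0.24 for EGLN3, -0.29 for PDK1 and -0.86 for NDRG1. OVKATE stayed among these 5 lines. It has the lowest HIF1A (39.1 CPM), CA12 (0) and BNIP3 (47.0 CPM) of the 7 and the second highest NDRG1 (171.1 CPM). How far the r values over 5 lines rest on that 1 library was not tested. All r values describe 7 or fewer lines whose libraries share a sequencing platform, and each point other than IGROV-1 is 1 library.

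**Figure D4:**
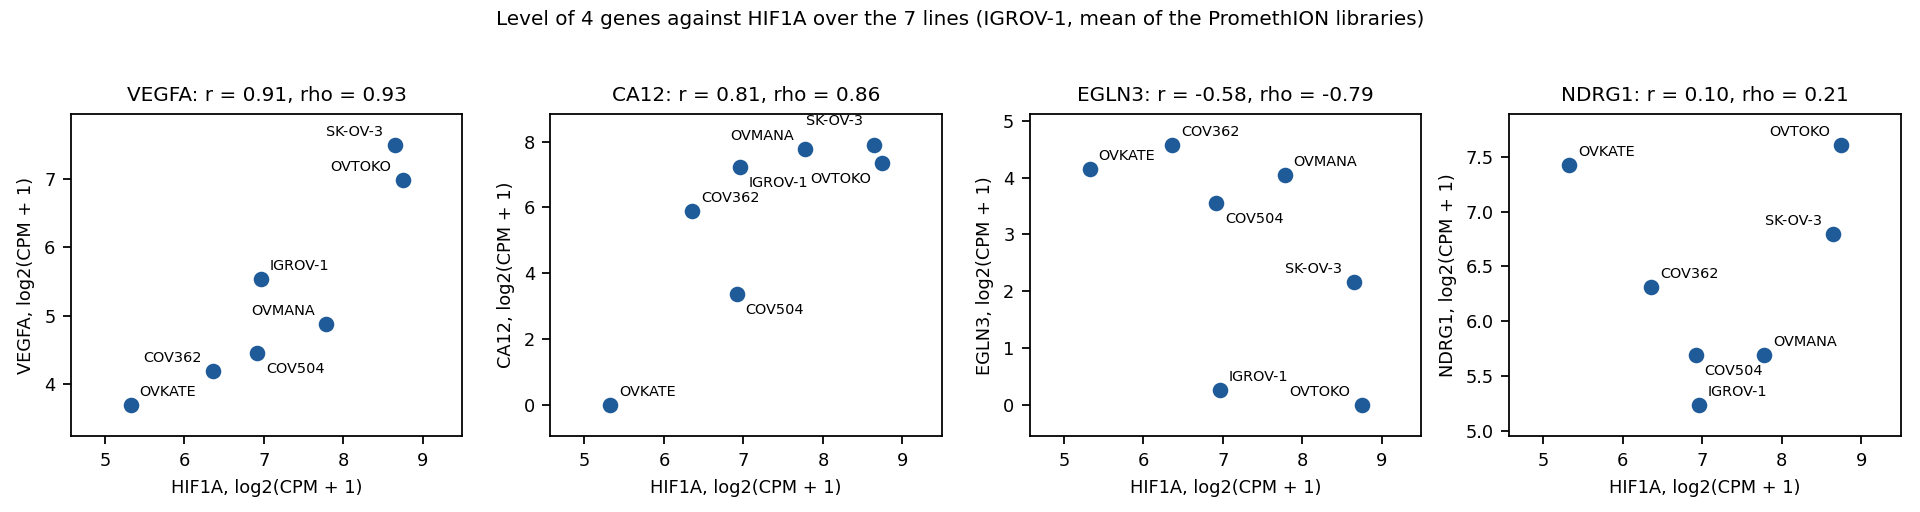
Level of VEGFA, CA12, EGLN3 and NDRG1 (vertical axes) against that of HIF1A (horizontal axis), both as log2(CPM + 1), over the 7 lines; each point is 1 line, and IGROV-1 is the mean of its PromethION pair. VEGFA runs from 11.9 CPM in OVKATE to 179.3 CPM in SK-OV-3 with HIF1A, CA12 is at 0 in OVKATE, EGLN3 is at 0 in OVTOKO, and NDRG1 is high at both ends.

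IGROV-1 was the line sequenced on both instruments. Of the 10 genes, 6 had enough counts for that comparison, VEGFA, CA12, BNIP3, NDRG1, PDK1 and HIF1A, and 0 of 6 passed the edgeR test, where 0.817% of the 10041 genes tested passed. HIF1A had the lowest p of the 6, with log2 0.53 higher on the MinION (SE 0.12, adjusted p = 0.097, range over alternatives 7.2e-08 to 0.51). PDK1 gave log2 1.14 (SE 0.39, adjusted p = 0.21). Both had an unadjusted p under 0.05, and DESeq2 passed none of the 6. The libraries numbered 1 and 2 differed in the same direction on both instruments for CA12, by a ratio of replicate 2 to replicate 1 of 1.69 on the PromethION and 1.81 on the MinION. BNIP3 went the other way, with ratios of 0.54 and 0.58. For VEGFA the ratios were 0.87 and 0.83, for HIF1A 0.98 and 1.05, and for NDRG1 1.14 and 0.76. CA12 and BNIP3 thus had the widest spread of these 5 genes between IGROV-1 libraries, and their change in OVTOKO had a standard error of 0.36 and 0.38 (log2), against 0.14 for HIF1A, 0.20 for VEGFA and 0.22 for NDRG1.

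**Figure D5:**
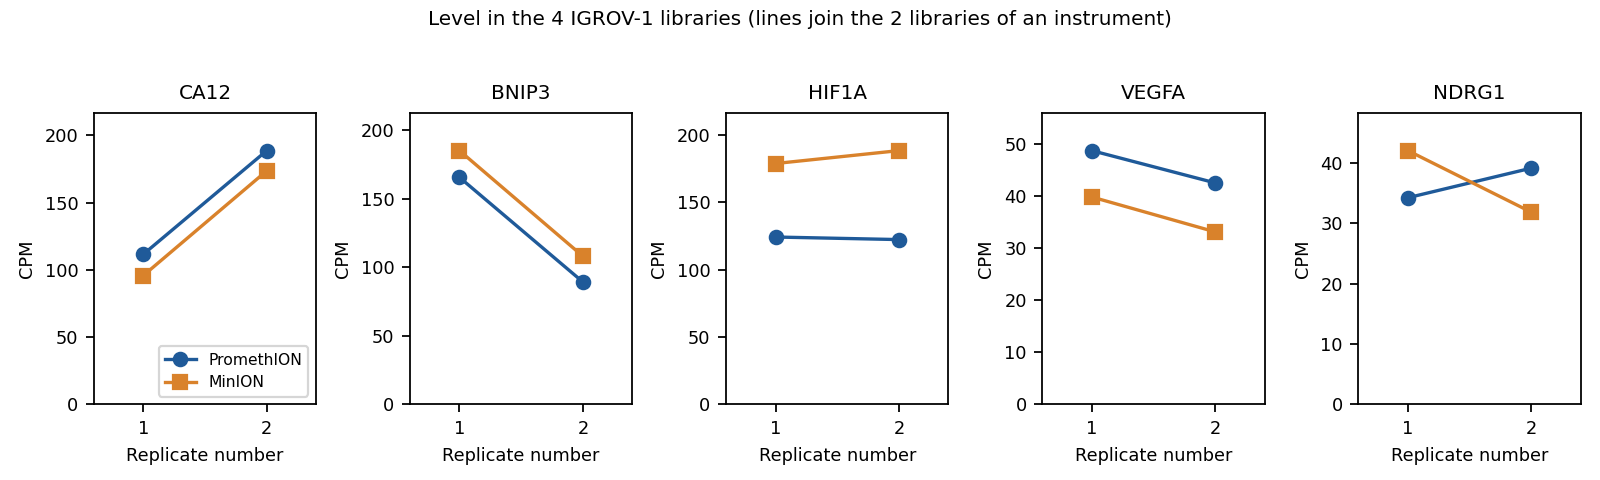
Level of 5 genes (vertical axis, CPM, from 0) in the IGROV-1 libraries with replicate number 1 and 2, on the PromethION (blue circles) and the MinION (orange squares). CA12 is higher and BNIP3 lower in the libraries numbered 2 on both instruments, and HIF1A is at 178.9 and 188.5 CPM on the MinION against 124.3 and 122.4 on the PromethION.

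Transcript usage could be tested for 5 of the genes (VEGFA, CA12, NDRG1, PDK1 and HIF1A) between lines and for 2 (VEGFA and HIF1A) between instruments. CA12 had no reads in OVKATE and so no shares to compare there, and its test in that line could not pass. None passed with edgeR in any of the 7 comparisons, in which between 1.35% (OVTOKO) and 5.98% (instruments) of all genes tested passed: 2.75% in OVMANA, 4.97% in OVKATE, 2.07% in SK-OV-3, 2.98% in COV362 and 2.56% in COV504. An unadjusted p under 0.05 was found for HIF1A between instruments, PDK1 in OVMANA and CA12 in COV504. No other tool was run on usage.

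Among the other parts of the oxygen-sensing machinery (14 genes, of which 13 were tested), 9 differed among the 7 lines, or 69.2% against 81.3% of all genes. The genes named next were picked by range among those 9, so their adjusted p-values are no further result. EPAS1, which encodes HIF-2alpha, had the widest range. It stood at 292.3 CPM in OVMANA, 176.3 in OVTOKO, 107.5 in IGROV-1, 40.6 in OVKATE, 39.0 in SK-OV-3, 22.7 in COV504 and 7.4 in COV362 (edgeR adjusted p = 6.6e-06). OVTOKO was thus high in both alpha subunits, whereas SK-OV-3 was high in HIF1A and OVMANA highest in EPAS1. ARNT2, a partner of the alpha subunits, ranged from 0 in OVMANA to 18.8 CPM in OVKATE (edgeR adjusted p = 0.0013), and the prolyl hydroxylase EGLN1 from 18.7 CPM in OVMANA to 63.0 in IGROV-1 (edgeR adjusted p = 0.0044). EGLN2 is counted jointly with neighbouring genes in the deposited table, and its entry ranged from 19.6 CPM in COV362 to 63.8 in OVKATE (edgeR adjusted p = 0.0057). Against IGROV-1 the list had 6 genes lower and 1 higher in COV504, 5 lower and 2 higher in COV362, and 1 to 4 in each direction in the other 4 lines. Of all genes tested 19.6% were lower and 24% higher in COV504, and 18.8% and 23.7% in COV362. Its median log2 change was -0.61 in COV362, -0.56 in COV504 and between -0.24 and 0.23 elsewhere.

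Of 45 other genes known as HIF targets (glycolysis, glucose and lactate transport, collagen modification and others), all were tested and 43 differed among the 7 lines. That is 95.6%, against 81.3% of all genes tested. OVTOKO had 26 higher and 2 lower than IGROV-1, where 18.2% of all genes were higher and 15.9% lower, with a median log2 change of 1.00 (1.07 over 44 genes with those at 0 set to their bound). COV504 had 18 higher and 9 lower (24% and 19.6% of all genes), and SK-OV-3 17 and 11 (22% and 19.8%). OVMANA had 16 and 5 (18.9% and 16.5%), COV362 11 and 12 (23.7% and 18.8%), and OVKATE 12 and 16 (26.8% and 22.4%). In COV504, SK-OV-3, OVMANA, COV362 and OVKATE the median log2 changes were 0.23, 0.23, 0.29, -0.03 and -0.45. With genes at 0 set to their bound they were 0.23, 0.29, 0.35, -0.05 and -0.45. In OVTOKO the calls were thus mostly increases, whereas in SK-OV-3 these 45 went in both directions; the difference from the 10 genes was not tested. ALDOC, a glycolytic aldolase, had 124.3 CPM in OVTOKO, 26.8 in IGROV-1 and none in OVKATE and COV362 (edgeR adjusted p = 4.9e-05 among the 7 lines). PLOD2, which hydroxylates collagen lysines, had 114.8 CPM in COV504, 64.2 in OVTOKO, 56.7 in SK-OV-3 and none in IGROV-1. SLC16A3, the lactate exporter, ran from 2.1 CPM in IGROV-1 to 326.1 in COV504, and LOX, which crosslinks collagen, from 0.6 in IGROV-1 to 127.8 in OVTOKO and 112.4 in SK-OV-3. These 4 were picked among the genes that passed the test over the 7 lines, so their adjusted p-values (edgeR, at most 4.9e-05) are no further result.

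The receptors that VEGFA and ADM act on, and the other VEGF family members, were measured as 13 genes, of which 8 had enough reads to be tested. All 8 differed among the 7 lines, where 81.3% of all genes tested did, so the test does not set them apart. The signalling VEGF receptors FLT1, KDR and FLT4 stayed at or below 1.8 CPM in all lines. NRP1, a coreceptor of the heparin-binding VEGFA form, had 167.1 CPM in SK-OV-3, 165.0 in IGROV-1, 141.6 in OVTOKO, 79.1 in OVMANA, 54.1 in COV362, 46.3 in COV504 and 0.5 in OVKATE (edgeR adjusted p = 0.00026). CALCRL, which forms the adrenomedullin receptor together with RAMP2 or RAMP3, had 90.1 CPM in IGROV-1 and 0 to 5.9 in the 6 other lines (edgeR adjusted p = 7.8e-06). RAMP2 stood at 8.0 CPM in OVMANA, 4.0 in COV504, 2.0 in COV362 and 1.5 in SK-OV-3 and had no reads in IGROV-1, OVTOKO and OVKATE, and RAMP3 had none in any line, all on the PromethION. RAMP1, which directs CALCRL towards another ligand, had 20.3 CPM in OVKATE, 9.8 in COV362, 5.3 in COV504 and none in the other 4 lines. VEGFC, the lymphatic growth factor, had 24.7 CPM in COV362, 9.8 in COV504 and 4.1 in SK-OV-3, with none in OVMANA, OVTOKO and IGROV-1.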

How the data were processed

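The cDNA of 10 libraries was read on nanopore instruments. Per the submitters' processing notes reads were aligned with minimap2 2.24-r1122 to GRCh38; for quantifier, annotation release and filters the sources used here name nothing. The authors deposited an estimated count and a TPM value for each transcript, per the file headers; the deposited TPM equals CPM, the count scaled by the library total without division by length. Estimated counts were summed per gene, or per transcript for usage, and rounded. Of the gene identifiers, 722 join several genes. edgeR 4.0.16 (R 4.3.3) was run with TMM scaling, filterByExpr, a quasi-likelihood fit with 1 coefficient per group over the 10 libraries (13030 genes; biological coefficient of variation 11.7%), and Benjamini-Hochberg adjustment over all genes tested, with a threshold of 0.05; a library of its own group has no replicate and enters with the spread of the IGROV-1 pairs. The test over 7 lines took all PromethION coefficients together, and the instruments were compared in the 4 IGROV-1 libraries. The SE of a log2 change was taken from the test, as the size of the change divided by the square root of its F statistic. Usage was tested with diffSpliceDGE. Alternatives were DESeq2 1.42.0, other scaling, filters and references, and leaving out each IGROV-1 library. The tests were also run on simulated data in which lone libraries had the spread fitted from the IGROV-1 pairs. That run could not check the assumption that lone libraries vary like those pairs.

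The members, the gene lists and the tests were chosen with earlier results of these data known. Named genes of each list were the up to 4 with the widest log2 range over the 7 lines among those that differed. That each of them passed the test over the 7 lines was thus fixed by the choice. The receptor genes FLT1, KDR, FLT4, RAMP2 and RAMP3 were named in addition, after their values were seen. Genes most like a member are given for the 4 members with the widest log2 range, by Pearson r of log2(CPM + 1) among genes with at least 10 CPM in some line and a log2 range of at least 1. Transcripts with at least 10% of a gene's counts were described; others named (CA12, HIF1A and VEGFA forms) were chosen after their values were seen. Intervals on shares are Wilson 95% intervals and cover counting error only.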

Additional observations from a re-analysis of the deposited data

How the results depend on the processing

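With DESeq2 the number of genes called in the whole table was 3800 among the 7 lines, 1442 in OVMANA, 2116 in OVKATE, 1314 in OVTOKO, 1672 in SK-OV-3, 1587 in COV362 and 1771 in COV504, each fewer than with edgeR by more than 1.5 times, and the number of the 10 genes called was 4 in SK-OV-3, 1 in COV362 and 1 in COV504. Against all 4 IGROV-1 libraries OVMANA had 1 of the 10 called, while the count over all genes was 4715. Among the 7 lines BNIP3 was lost without IGROV-1 MinION replicate 1 (edgeR adjusted p = 0.056). Leaving out 1 IGROV-1 library at a time gave 4 to 7 of the 10 genes in COV362 (4 without MinION replicate 1) and 2890 to 4398 of all genes in OVTOKO (2890 without MinION replicate 1). Between the instruments the count over all genes was 4 to 209 when 1 library was left out, 49 with all 10 libraries in the fit and 15 with no filter. For transcript usage, leaving out 1 library gave 38 to 61 genes between instruments, 27 to 36 in OVMANA, 51 to 71 in OVKATE, 13 to 17 in OVTOKO, 18 to 27 in SK-OV-3, 39 to 44 in COV362 and 29 to 38 in COV504, all fewer than with all libraries, in fits with fewer samples. The replicate numbers of the 2 IGROV-1 pairs carry no statement of a shared culture or day, and deviations of same-numbered libraries had r 0.37 over 10041 genes. With the replicate number as a block, 1979 genes differed between instruments, 1 of them a member, HIF1A (log2 0.53, edgeR adjusted p = 7.2e-08). Changes that did not pass the test turned direction in 12 cases, 11 of them on leaving out a library. In 12 further cases a member that did not pass in the main fit passed under an alternative. Leaving out 1 library at a time, the log2 change ran from -0.20 to 0.68 for BNIP3 in OVMANA, -0.08 to 0.81 in COV504 and -0.61 to 0.27 in COV362, from -0.89 to 0.87 for ADM in OVKATE and from -0.14 to 0.62 for CA12 in OVTOKO. MinION minus PromethION ran from -0.64 to 0.22 for CA12 (0.13 without MinION replicate 1), from -0.32 to 0.69 for BNIP3 (-0.21 without PromethION replicate 2) and from -0.28 to 0.21 for NDRG1 (0.08 without PromethION replicate 2, and 0.01 with no filter). For the differences not explained by fewer samples the cause was not tested. At this depth genes below about 5 CPM rest on few reads, which limits ADM, CA9, EGLN3, PDK1 and ANKRD37 in IGROV-1.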

Other observations

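Of 15 paralogs 13 were tested and 12 differed among the 7 lines, or 92.3% against 81.3% of all genes tested. Their median log2 change against IGROV-1 was 0.40 in OVTOKO, 0.39 in SK-OV-3, 0.03 in OVMANA, -0.05 in COV504, -0.34 in OVKATE and -0.34 in COV362. In COV362 it was -0.61 with genes at or under the floor on both sides left out. CA2, the cytosolic carbonic anhydrase, had 1490.9 CPM in OVTOKO, 1187.1 in IGROV-1, 866.5 in OVKATE and none in OVMANA, where CA12 stood at 216.4. OVKATE, which had no CA12 reads, thus had much CA2. ADM2, a peptide related to adrenomedullin, had 28.4 CPM in SK-OV-3, 13.9 in OVMANA, 7.5 in OVTOKO and 0.4 in COV504, where ADM had 16.9. NDRG2 had 27.2 CPM in OVKATE and at most 7.5 in the other lines, and NDRG4 had 41.1 in OVMANA, 39.6 in OVKATE and 0.6 in OVTOKO, the line with the most NDRG1. OVKATE, with 171.1 CPM of NDRG1, was high in both NDRG4 and NDRG1.

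The 38 annotated BNIP3 pseudogenes, whose reads could be mistaken for BNIP3, summed to 0.0 to 3.5 CPM per library, and 1 of them passed 1 CPM anywhere, against 47.0 to 352.6 CPM for BNIP3. The antisense genes HIF1A-AS1, HIF1A-AS2 and EGLN3-AS1 had at most 0.6 CPM. COV362 is the line with the most EGLN3 (22.7 CPM) and the least EPAS1 (7.4 CPM) of the 7. OVMANA, with the most EPAS1 (292.3 CPM), had 15.5 CPM of EGLN3, so the lines show no single order.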
